A study of Mus musculus with 16 samples.

Results

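The genes described here are 10 mouse genes that cut and rejoin antigen receptor segments: Dntt, Rag1, Rag2, Lig4, Xrcc4, Xrcc5, Xrcc6, Dclre1c, Prkdc and Nhej1. They are 10 of the 55414 Ensembl gene identifiers counted. They were chosen by symbol, from their known roles and with results on these libraries in view: the difference in Dntt between central nervous system and marrow was already known when the set was drawn up. Differences of the 10 genes between those 2 sites are therefore given as a description, and nothing is read from their calls in the fits. Comparisons between sorted cell types, and between the site differences of the sorted types, are tested. All 10 genes passed the minimum for testing, which was 10 counts per library on average.

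RNA was sequenced from sorted leukaemia-propagating cells (LPC), cells held able to pass a leukaemia on, in mice that model the pro-B acute lymphoblastic leukaemia of infants. Every group carried a Kmt2a-AFF1 fusion and overexpressed miR-128a, so no library comes from cells without either. BM LSK and CNS LSK are lineage-negative, Sca1+, cKit+, IL7R+ cells from bone marrow (BM) and from the central nervous system (CNS). BM LK and CNS LK are lineage-negative, Sca1-, cKit+ cells from the same 2 sites, titled LK/CLP in the labels. Each group holds 4 libraries, numbered by their titles. The promoter that drives miR-128a, the age and number of the animals, and whether a library holds 1 animal or several are not given in the sources used here. The p-values measure the spread between these libraries, which may in part be technical. The description label of each library has a stem shared by 1 BM and 1 CNS library of the same sorted type. This gives 8 stems, LSK 1 to 4 and LK 1 to 4, whose meaning the labels do not state. The LSK and LK stems of the same title number also begin with the same digits, and the labels do not say why. Comparisons of LSK with LK were therefore fitted without and with the title number as a block.

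V(D)J recombination builds the antigen receptor genes of B and T cells. The RAG1 and RAG2 proteins together cut DNA beside V, D and J segments and leave sealed hairpin ends. Non-homologous end joining then repairs the break: Ku70 and Ku80 (genes Xrcc6 and Xrcc5) bind the ends, DNA-PKcs (Prkdc) and Artemis (Dclre1c) open the hairpins, and the ligase made by Lig4 with Xrcc4, helped by XLF (Nhej1), seals them. Terminal deoxynucleotidyl transferase (Dntt) adds bases without a template at the junctions and is found mainly in early lymphocytes, whereas the end-joining genes act in nearly all cells.

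The promoters of the 3 lymphoid genes Dntt, Rag1 and Rag2 are shown because these genes are the ones of the 10 that act mainly in lymphocytes. RefSeq (GRCm38.p6) had a promoter, 250 bases before to 50 after the start, for 9 of the 10 genes. Prkdc had no entry. Capitals mark matches, on either strand, to an E-box (CANNTG) or to a RUNX motif (TGTGGT). A TCF and LEF core (CTTTG) and a TATA box (TATAAA) were also searched and had 0 matches in these 3 windows. The Dntt promoter lies at chr19:41029025-41029324 on the plus strand, that of Rag1 at chr2:101649483-101649782 on the minus strand, and that of Rag2 at chr2:101624462-101624761 on the plus strand.
Dntt: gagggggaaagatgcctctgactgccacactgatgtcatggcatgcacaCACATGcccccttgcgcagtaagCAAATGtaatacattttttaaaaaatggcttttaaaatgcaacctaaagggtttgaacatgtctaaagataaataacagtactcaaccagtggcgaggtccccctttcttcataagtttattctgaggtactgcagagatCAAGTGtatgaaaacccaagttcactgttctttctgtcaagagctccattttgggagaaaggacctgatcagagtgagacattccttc
Rag1: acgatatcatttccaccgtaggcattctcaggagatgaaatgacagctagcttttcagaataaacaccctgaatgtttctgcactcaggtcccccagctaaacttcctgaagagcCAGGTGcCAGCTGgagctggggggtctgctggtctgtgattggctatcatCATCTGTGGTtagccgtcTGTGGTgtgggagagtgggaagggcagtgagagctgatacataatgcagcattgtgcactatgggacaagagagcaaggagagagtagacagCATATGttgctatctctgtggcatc
Rag2: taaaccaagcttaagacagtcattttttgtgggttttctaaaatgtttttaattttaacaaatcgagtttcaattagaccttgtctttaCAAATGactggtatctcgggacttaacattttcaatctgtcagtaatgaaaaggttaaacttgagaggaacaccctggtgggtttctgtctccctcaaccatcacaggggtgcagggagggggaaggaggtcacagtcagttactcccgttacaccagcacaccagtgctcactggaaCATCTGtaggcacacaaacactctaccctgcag
The Dntt window held 3 E-boxes, that of Rag1 held 4 E-boxes and 2 RUNX matches, one of which overlaps an E-box, and that of Rag2 held 2 E-boxes. Of the 32851 RefSeq promoters of the same length, 72.3% held an E-box, 16.8% the RUNX motif, 53.9% the TCF and LEF core and 13.6% the TATA box, so an E-box in a window is common. The 3 lymphoid promoters had 2, 3 and 3 CG dinucleotides, while the 7 windows of the 6 end-joining genes with an entry had 9 to 31. The G and C content was 42.3% at Dntt, 43.0% at Rag2 and 50% at Rag1, beside 48.0% at Xrcc5 and 52.7% for the median of all promoters. These are descriptions of sequence and say nothing of which factor binds.

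Libraries held 19163942 to 29232623 counts, and levels are CPM, the counts scaled per library to the same total after TMM scaling (trimmed mean of M values), given as mean ± SD over 4 libraries. Olfactory and vomeronasal receptor genes, 1969 in all and silent in most tissues, served as a measure of background. Their counts per kb of exon were higher in CNS in 7 of 8 stems, with a mean log2 difference of 0.57 (p = 0.0234, exact two-sided test by sign flips). The cells are labelled pro-B, but the 10 B-lineage markers other than the genes described here summed to 3.19 to 9.33 CPM, between 1.64 and 3.32 times what background per kb predicts. Pax5 had at most 1.52 CPM and Ebf1 at most 1.44, and Vpreb2 was at 0 in 8 of 16 libraries. By contrast, Lck, a kinase of T and NK cells, had 199 to 252 CPM, while the T-cell receptor chains Cd3d, Cd3e and Cd3g had at most 1.16, 0.679 and 1.09 CPM. Vpreb3 was counted in all 16 libraries, at 0.889 to 2.03 CPM, and Cd79a and Blnk reached 2.13 and 2.66 CPM. As a sum, the markers of the labelled B lineage were thus low, at no more than 3.32 times background in any library. Single markers were not compared with background.

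The level of the 10 genes, compared per kb of exon, reached from near background to abundant. Xrcc6 was the highest at 140 ± 10.5 CPM per kb (SD, n = 16 libraries). Rag1 followed at 41.7 ± 6.08 and Dntt at 34.2 ± 26.1. Lig4 (10.4 ± 0.760) and Xrcc5 (9.48 ± 1.07) came next, then Prkdc (4.17 ± 0.321), Nhej1 (2.14 ± 0.381), Dclre1c (1.10 ± 0.115) and Xrcc4 (0.977 ± 0.167), and Rag2 was lowest at 0.165 ± 0.0783. In this order the library ranges of Rag1 and Dntt overlapped, as did those of Dntt and Lig4, of Lig4 and Xrcc5, and of Dclre1c and Xrcc4. The other neighbouring genes had ranges that did not overlap.

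**Figure D1:**
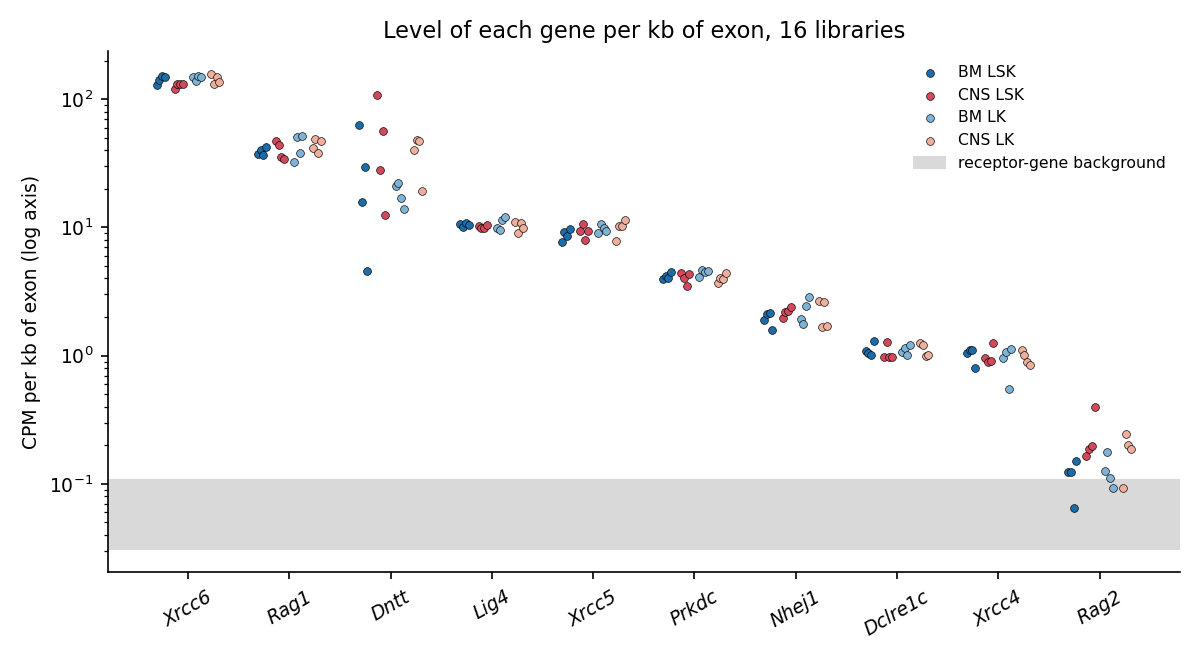
Level of each gene in each of the 16 libraries, in CPM per kb of exon on a log axis, with the genes ordered by mean. Points are libraries coloured by group, and the grey band is the range of the background measured on olfactory and vomeronasal receptor genes. Dntt spreads from 4.57 to 108, and Rag2, from 0.0649 to 0.397, is the gene that reaches into the band.

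The genes also differed in how much they varied between libraries. The highest library had 23.7 times the Dntt CPM of the lowest, and the coefficient of variation was 76.2%. For Rag2 the ratio was 6.11 and the coefficient 47.4%. Rag1 varied much less, with a ratio of 1.60 and a coefficient of 14.6%. Lig4 (7.28%), Xrcc6 (7.47%), Prkdc (7.70%), Dclre1c (10.5%) and Xrcc5 (11.3%) were the steadiest, and Xrcc4 (17.1%) and Nhej1 (17.8%) had few counts, 48 to 133 and 40 to 80 per library.

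Dntt (ENSMUSG00000025014, chromosome 19) was the one gene of the 10 that was higher in CNS in every stem. In BM LSK it had 145, 36.4, 67.5 and 10.5 CPM in libraries 1 to 4. In CNS LSK it had 248, 63.8, 129 and 28.4 CPM. The library order within LSK was the same at both sites, 1, 3, 2 and 4 from high to low, and the ranges of the 2 groups overlapped. In BM LK it had 48.1, 51.4, 39.1 and 32.1 CPM, and in CNS LK 92.3, 111, 108 and 44.2 CPM. CNS LK 4 lay inside the BM LK range, and the other 3 CNS LK libraries lay above it. The group means were 64.8 ± 58.3 in BM LSK, 117 ± 96.5 in CNS LSK, 42.7 ± 8.75 in BM LK and 88.8 ± 30.8 in CNS LK (SD, n = 4 each). In bulk RNA, a larger share of Dntt-expressing cells and more Dntt RNA per cell cannot be told apart.

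**Figure D2:**
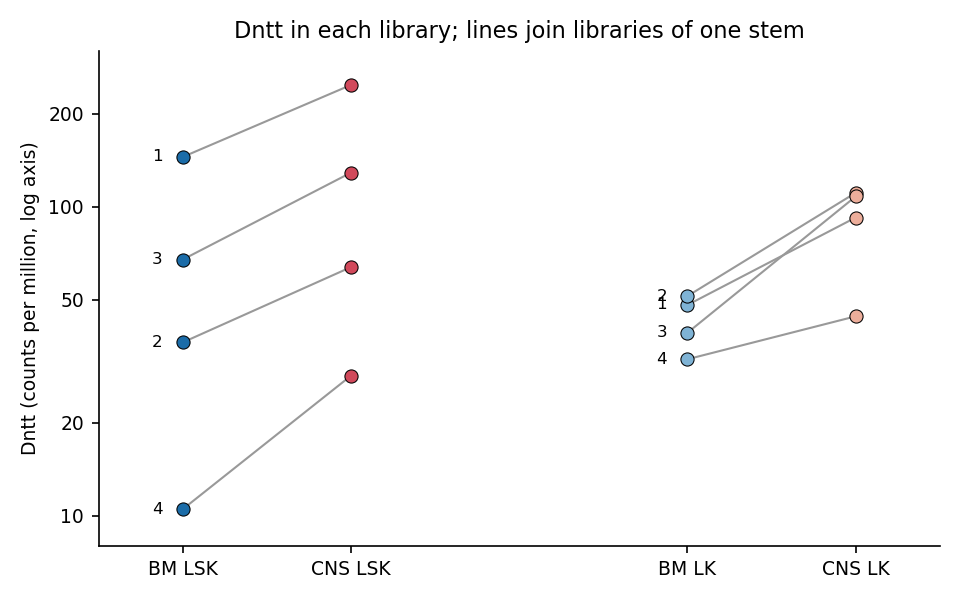
Dntt in each library, in CPM on a log axis, with BM and CNS libraries of one stem joined and numbered by title. All 8 lines rise from BM to CNS, while the libraries of one group spread widely in LSK and less in LK, where BM LK runs from 32.1 to 51.4.

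Within stems, Dntt was higher in CNS in 8 of 8. The log2 difference was 0.77 in LSK 1, 0.81 in LSK 2, 0.93 in LSK 3 and 1.43 in LSK 4. In the LK stems it was 0.94, 1.11, 1.46 and 0.46 for LK 1 to 4, and the median over stems was 0.93. The fit of the 4 group means, without stems, gave a log2 change of 0.96 ± 0.41 (edgeR, SE; 95% interval 0.10 to 1.81), a 1.94-fold level. With the stem as a block the change was 0.97 ± 0.081 (0.80 to 1.15). The size was alike and the error smaller. Leaving out both libraries of each stem in turn moved the blocked value between 0.90 and 1.06, and adding the background of each library as a covariate gave 1.10. Background predicts at most 1.15% of the Dntt counts of any library. Without the block, single libraries weighed more: the value was 0.62 without CNS LSK 1 and 1.34 without BM LSK 1.

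The Dntt difference between sites was of similar size in both sorted types. With the stem block it was 0.95 ± 0.12 in LSK and 1.00 ± 0.11 in LK (log2, SE). The difference between these 2 changes was −0.048, with an interval of −0.39 to 0.29 (edgeR's quasi-likelihood test with Benjamini-Hochberg adjustment, adjusted p = 1.00). Without the block it was −0.19 with an interval of −1.89 to 1.5 (adjusted p = 1.00), which is too wide to tell equal changes from changes that differ several-fold. No gene of the 10, and 0% of the 18878 genes tested, passed an adjusted p of 0.05 for that difference in edgeR without a block, with the block, or in DESeq2. Among the 10 genes 0 had an unadjusted p under 0.05 in any of the 3, where 281, 589 and 272 of all genes tested did.

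Between LSK and LK cells Dntt differed by 0.50 ± 0.41 (log2, SE; interval −0.35 to 1.35), and this did not pass the test (edgeR adjusted p = 0.664, and 0.310 to 0.957 over the alternatives). With the title numbers as a block the difference was 0.097 ± 0.26 (interval −0.46 to 0.65). The LSK libraries reach from 10.5 to 248 CPM and enclose every LK library. Within marrow the difference was 0.59 and turned to −0.17 without BM LSK 1. Within the CNS it was 0.40 and turned to −0.27 without CNS LSK 1.

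Rag1 (ENSMUSG00000061311, chromosome 2), the catalytic subunit of the recombinase, was abundant and even. It had 249, 266, 242 and 280 CPM in BM LSK and 314, 292, 235 and 224 CPM in CNS LSK, libraries 1 to 4. In BM LK it had 213, 334, 253 and 341 CPM, and in CNS LK 276, 325, 254 and 310 CPM. All 4 groups overlapped. It was higher in CNS in 4 of 8 stems, and the change with the stem block was 0.038 ± 0.063 (log2, SE; interval −0.093 to 0.17). Between sorted types it differed by −0.13 ± 0.095, LSK minus LK (edgeR adjusted p = 0.603).

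Rag2 (ENSMUSG00000032864, chromosome 2), the partner that RAG1 needs to cut DNA, was counted 5 to 30 times per library. Counts were 8, 12, 5 and 12 in BM LSK, 13, 16, 15 and 30 in CNS LSK, 12, 17, 8 and 8 in BM LK, and 6, 20, 16 and 19 in CNS LK. Background alone predicts between 15.5% and 66.4% of these counts, with a median of 44.5%, beside at most 0.253% for Rag1. Per kb of exon, Rag1 stood 85.6 to 563 times above Rag2, with a median of 281. In CPM the LSK sites were narrowly separate: the highest BM LSK library had 0.521 CPM on 12 counts and the lowest CNS LSK library 0.564 on 13. Background predicts 4.15 of those 12 counts (BM LSK 4) and 7.01 of those 13 (CNS LSK 1), so this separation is not clear of background. The LK sites overlapped.

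Rag2 was higher in CNS in 7 of 8 stems, all but LK 1, with a log2 change of 0.76 ± 0.28 without the block and 0.74 ± 0.30 with it (SE). With the background of each library as a covariate beside the block, the change was 0.49, and without CNS LSK 4 (no block) it was 0.59. In the GENCODE M21 annotation, 1.21% of the Rag1 exon bases are shared with B230118H07Rik on the same strand. Of the Rag2 exon bases, 6.07% are shared with B230118H07Rik on the opposite strand. That gene, named here for its overlap, had 27.9 to 46.9 CPM and was lower in CNS in 8 of 8 stems. Whether the counting used strand is not given in the sources used here, so reads of the shared Rag2 bases cannot be assigned. Strand would not separate reads of the shared Rag1 bases. Rag2 did not pass the test between LSK and LK (0.11 ± 0.28, interval −0.48 to 0.71, edgeR adjusted p = 0.915). Leaving out CNS LSK 4, the library with 30 counts, turned that value to −0.054.

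Ku70 and Ku80 form 1 ring around a DNA end, yet their transcripts were far apart. Xrcc6 (ENSMUSG00000022471, chromosome 15; Ku70) had 12 to 19.9 times the Xrcc5 level per kb (ENSMUSG00000026187, chromosome 1; Ku80), with a median of 15.3. Of the Xrcc6 exon bases, 7.69% are shared with Desi1 on the opposite strand. Xrcc6 averaged 639 ± 46.7 CPM in BM LSK, 576 ± 25.8 in CNS LSK, 654 ± 25.9 in BM LK and 641 ± 50.1 in CNS LK. It was lower in CNS in 7 of 8 stems, by 0.091 ± 0.040 on the log2 scale with the block. Xrcc5 averaged 22.5 to 25.5 CPM over the groups and was higher in CNS in 4 of 8 stems.

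The hairpin-opening pair was low to moderate and even. Prkdc (ENSMUSG00000022672, chromosome 16) averaged 54.9 ± 2.96 CPM in BM LSK, 53.4 ± 5.55 in CNS LSK, 58.4 ± 3.21 in BM LK and 53.1 ± 4.00 in CNS LK. It was lower in CNS in 7 of 8 stems, with a change of −0.091 ± 0.044 (log2, SE, stem block). Dclre1c (ENSMUSG00000026648, chromosome 2) averaged 9.74 to 10.4 CPM over the groups and was higher in CNS in 3 of 8 stems.

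Of the ligation genes, Lig4 (ENSMUSG00000049717, chromosome 8) had 47.1 to 62.9 CPM, and its level per kb was 8.45 to 21.1 times that of Xrcc4 (ENSMUSG00000021615, chromosome 13), the scaffold it needs for stability. Lig4 was lower in CNS in 7 of 8 stems, with a change of −0.062 ± 0.046 (log2, SE, stem block). Xrcc4 had 2.30 to 5.25 CPM and was higher in CNS in 3 of 8 stems. Nhej1 (ENSMUSG00000026162, chromosome 1) had 1.78 to 3.19 CPM and was higher in CNS in 6 of 8, with single stems between −0.73 and 0.56.

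**Figure D3:**
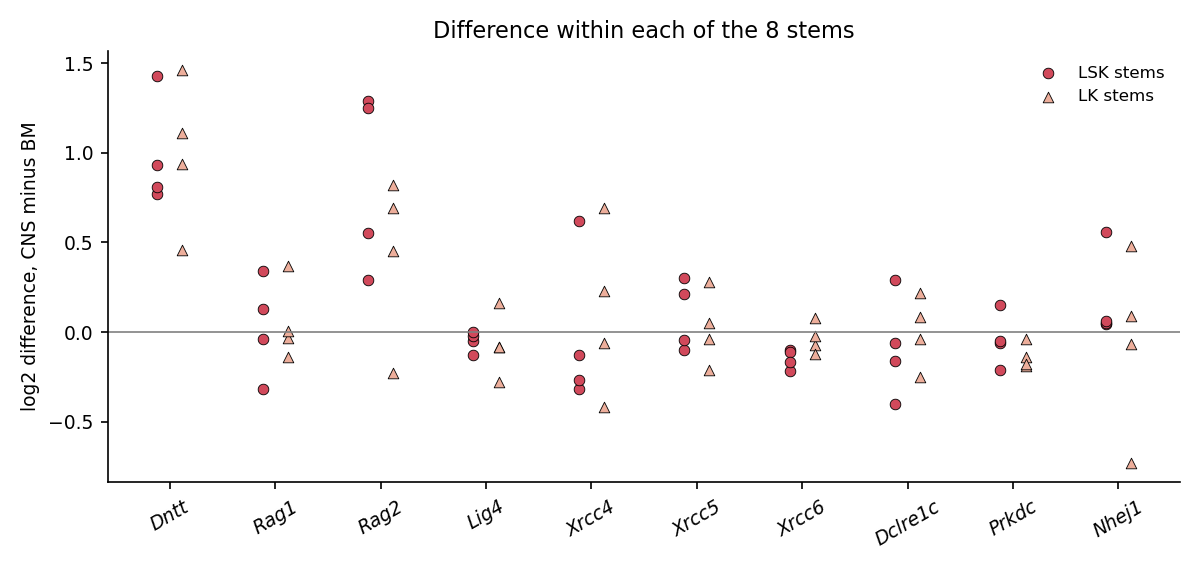
The log2 difference between the CNS and the BM library of each stem, for each of the 10 genes, with circles for the 4 LSK stems and triangles for the 4 LK stems. All 8 Dntt points lie above 0, 7 of 8 Rag2 points do, and the Lig4 points lie between −0.28 and 0.16.

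Across all genes, the fit without the block called 0% of the 18878 tested as different between sites, over both sorted types and within each (1727, 1083 and 754 genes had an unadjusted p under 0.05), and called 0 of the 10 genes. DESeq2 called 40 genes over both types and 0 of the 10. With the stem block edgeR called 126 genes, 0.667% of those tested, over both types, 0.138% within LSK and 0.0636% within LK, and Dntt was the 1 of the 10 in each case. Since Dntt was part of why the set was drawn up, nothing is read from this count. The median log2 change of the 10 genes was 0.025 without the block and 0.032 with it, beside −0.0015 over all genes with it.

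Between LSK and LK cells over both sites, 45 genes, 0.238% of those tested, passed edgeR's test at an adjusted p of 0.05 (15 without CNS LK 3 and 137 without CNS LSK 2), and 0 of the 10 genes did. Of the 10, 0 had an unadjusted p under 0.05, beside 2288 of the 18878 genes tested, and nothing is read from 0 among 10. DESeq2 called 0 of the 10, beside 222 genes. The smallest adjusted p of the 10 in edgeR was that of Xrcc6 (0.478), at −0.094 ± 0.051 (log2, SE; interval −0.20 to 0.014). The intervals of Lig4 (−0.14 to 0.096), Prkdc (−0.16 to 0.077), Xrcc5 (−0.28 to 0.040) and Dclre1c (−0.23 to 0.13) are narrow. That of Dntt is wide, and those of Rag2, Xrcc4 and Nhej1 are limited by their counts. Within marrow and within the CNS alone 0% of genes were called by edgeR (1205 and 1242 had an unadjusted p under 0.05), and DESeq2 called 25 and 6, none of them among the 10. The median change of the 10 genes over both sites was −0.047, beside −0.011 over all genes.

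**Figure D4:**
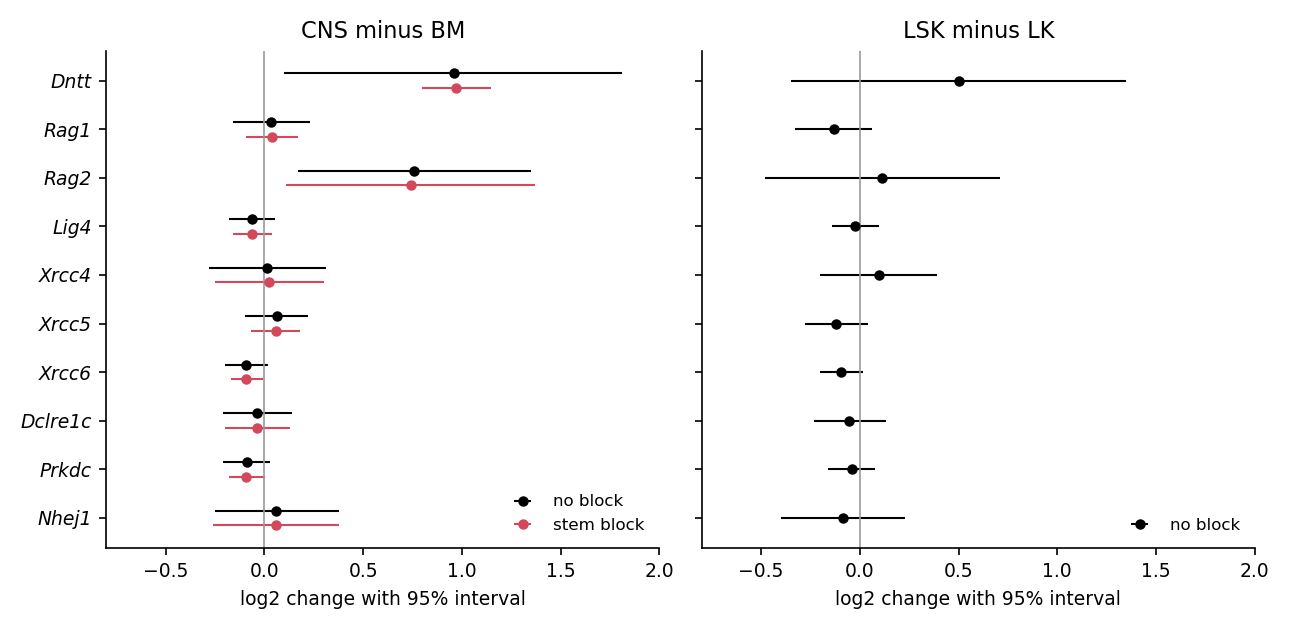
Log2 change of each gene with its 95% interval, CNS minus BM over both sorted types on the left and LSK minus LK over both sites on the right. Black points are the fit without a block and red points the fit with the stem as a block. The block shortens the Dntt interval from 0.10 to 1.81 to 0.80 to 1.15 and changes the others less. That of Xrcc6 goes from −0.20 to 0.017 without the block to −0.17 to −0.0078 with it.

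Of 22 regulators of Rag and Dntt transcription tested, edgeR called 0 between sites without the block (3 had an unadjusted p under 0.05, and DESeq2 called 0) and 2 with it, both higher in the CNS. Over all genes tested, 1727 had an unadjusted p under 0.05 in edgeR without the block, and 0.667% were called with it. The list of regulators was drawn up with earlier results of these data known, so its site differences and their p-values are a description. Lef1, an HMG-box factor of early lymphocytes and an effector of Wnt signalling, changed by 0.34 ± 0.041 (log2, SE; edgeR with the stem block, adjusted p = 0.000234) and was higher in CNS in 8 of 8 stems. It averaged 158 ± 18.6 CPM in BM LSK, 199 ± 21.1 in CNS LSK, 158 ± 41.4 in BM LK and 199 ± 37.7 in CNS LK. Gata3, a factor required in early T-cell development, changed by 0.25 ± 0.044 (adjusted p = 0.00771, same fit) and was also higher in 8 of 8. It averaged 34.4 ± 3.27 CPM in BM LSK, 43.1 ± 1.99 in CNS LSK and 35.6 ± 4.27 in BM LK, and had 37.2 to 44.4 CPM in CNS LK. Pax5, the B-lineage identity factor, had the highest value of the 22, 1.1 ± 0.42 without the block (adjusted p = 0.449, and 0.308 with the block), on 1 to 34 counts per library. The most abundant regulators did not pass either: Satb1 had 555 to 714 CPM and Tcf12 371 to 433. The median change over the 22 was 0.0012, beside −0.0015 over all genes with the block. Between LSK and LK 0 of 22 were called by edgeR or DESeq2. In edgeR without a block 2 of 22 had an unadjusted p under 0.05, beside 2288 of all 18878 genes tested.

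Of 9 genes that act on the RAG proteins, 0 were called between sites in either edgeR fit or DESeq2 (0 at an unadjusted p under 0.05 without the block and 1 with it). Between LSK and LK, 1 of 9 passed in edgeR: Kpna2, an importin that can carry RAG1 into the nucleus, was 0.56 ± 0.077 higher in LSK (log2, SE; edgeR adjusted p = 0.00248). It averaged 94.1 ± 9.20 CPM in BM LSK and 97.9 ± 13.4 in CNS LSK, beside 62.5 ± 3.87 in BM LK and 67.3 ± 10.6 in CNS LK. No LK library reached the lowest LSK library, which had 84.1 CPM. DESeq2 called 2 of the 9, and edgeR with the title numbers as a block also called 2, Kpna2 and the cyclin gene Ccna2 (0.41, adjusted p = 0.00251). Genes of G2 and mitosis moved the same way, 10 of 15 called higher in LSK. The highest 3 were Ube2c (0.72), Cenpf (0.67) and Ccnb1 (0.59), and the lowest 3 called were Tpx2 (0.49), Top2a (0.43) and Mki67 (0.40). The part of cell cycle in the Kpna2 difference was not tested. Of 14 S-phase genes 0 were called by edgeR or DESeq2. In edgeR without a block 1 of 14 had an unadjusted p under 0.05, beside 2288 of all 18878 genes tested. Ddb1, part of the ubiquitin ligase that turns RAG1 over, had 284 to 336 CPM.

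No gene of the other repair routes passed edgeR's test without the block, between sites or between sorted types. Over all 18878 genes tested, 1727 and 2288 had an unadjusted p under 0.05 in these 2 comparisons. Of 12 end-joining accessory factors, 0 were called between sites (1 at an unadjusted p under 0.05) and 0 between sorted types (3), where DESeq2 called 1. The most abundant were Hmgb1 (649 to 871 CPM) and Hmgb2 (357 to 600 CPM), chromatin proteins that help RAG bind. Of 14 genes of break signalling and end protection 0 were called in either comparison (3 and 2). Of these, Rif1, which protects ends from resection, had 135 to 171 CPM. Of 10 genes of alternative end joining 0 were called (1 and 0), led by Parp1 (176 to 206 CPM) and Lig1 (134 to 205 CPM). Of 14 genes of homologous recombination 0 were called and 0 had an unadjusted p under 0.05, led by Brca1 and Brca2. With the title numbers as a block, LSK against LK called 1 accessory gene, Hmgb2 (0.35, adjusted p = 0.0123 in edgeR), and 1 break signalling gene, H2afx (0.39, adjusted p = 0.0138). DESeq2 called 0 of these last 3 lists, and the stem block added 0 calls between sites in any of the 4.

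Genes that mature B cells use to diversify receptors gave 0 calls among 5 tested in any of these fits and 0 at an unadjusted p under 0.05, led by Msh6 (135 to 177 CPM). Of the 4 testable genes of the surrogate light chain and pre-B receptor list, Syk fell by 0.28 on the log2 scale in the CNS (SE 0.060, edgeR with the stem block, adjusted p = 0.0347). Without the block edgeR called 0 of the 4, as did DESeq2 (2 at an unadjusted p under 0.05 in each). Over all genes tested, 1727 and 1841 were under 0.05 in these fits, and edgeR with the stem block called 0.667%. Syk averaged 35.1 ± 5.57 CPM in BM LSK, 27.7 ± 4.28 in CNS LSK, 33.6 ± 1.53 in BM LK and 28.9 ± 3.40 in CNS LK. This list too was drawn up with earlier results of these data known, so the Syk difference is a description. Vpreb1 and Igll1, the surrogate light chain itself, had at most 9 and 12 counts.

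The loci that the recombinase acts on gave a readout that the choice of genes did not use. The 185 Igh V segments summed to 63 to 244 counts per library, 1.15 to 2.00 times the level that background per kb predicts, and the 4 Igh J segments had 0 counts in all 16 libraries, which allows up to 3 counts each (counting error only). The 160 Igk V segments summed to 24 to 179 counts, 0.515 to 1.56 times background. The 20 short Igh D segments summed to 0 to 13 counts, 0 to 20.7 times background with a median of 3.94. The 2 Igh constant genes counted here, Ighm and Ighd, had 0 to 11 counts together.

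T-cell receptor segments stood far above background at 2 of their loci. The 35 Trb V segments summed to 1562 to 2679 counts (65.2 to 232 times background) and the Trb constant genes to 2834 to 4882. The 7 Trg V segments summed to 2202 to 4843 counts (481 to 1934 times background) and the Trg constant genes to 3901 to 9954. The Tra constant gene had 1 to 11 counts and the Trd constant gene 2 to 30, or 0.522 to 12.2 and 0.738 to 2.79 times background. The 128 Tra V segments stood between, at 2.54 to 5.83 times background.

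The same few segments led in every library. Trbv26 took 45.2% to 55.2% of Trb V counts and was the most counted in 16 of 16 libraries, followed by Trbv13-2 (14.5% to 24.9%), Trbv14 (13.5% to 17.1%) and Trbv12-2 (8.02% to 12.3%). Of 5202 counts on the 14 Trb J segments over all libraries, all but 3 lay on Trbj2-5, Trbj2-6 and Trbj2-7, with Trbj2-6 first in 16 of 16 libraries. Among Trg V segments, Trgv2 (41.1% to 51.0%) and Tcrg-V1 (39.5% to 45.1%) led. Near-identical V segments can share reads, and whether reads crossed a V to J junction cannot be seen in gene counts, so these counts do not show which alleles are rearranged.

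**Figure D5:**
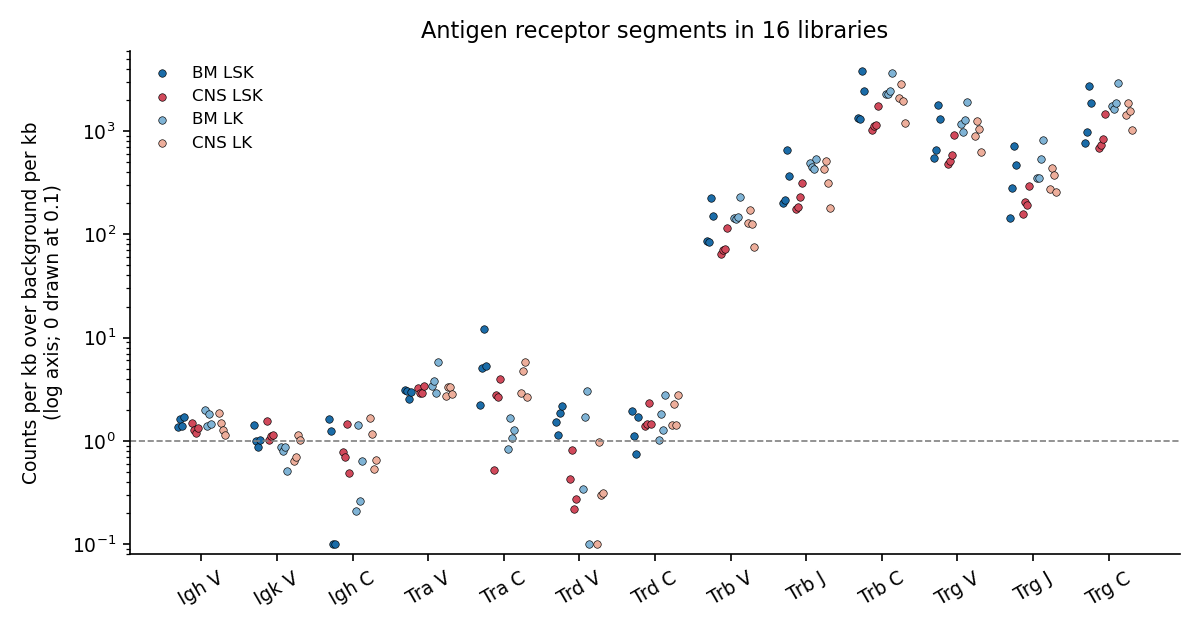
Counts per kb of exon of 13 antigen receptor segment classes, divided by the background per kb of the same library, on a log axis with the 16 libraries coloured by group and a dashed line at 1, and values of 0 drawn at 0.1. The Trb and Trg V, J and constant classes lie from 65.2 times background upward, while the Igh, Igk, Tra and Trd classes plotted lie at 12.2 times or less.

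No segment level passed the test between groups after adjustment. The summed Igh V level was 0.30 higher in the CNS on the log2(CPM + 1) scale, in 6 of 8 stems (p = 0.102 by the exact sign-flip test, two-sided, and 0.254 adjusted over 10 tests). It differed by 0.32 between LSK and LK (exact two-sided permutation p = 0.229, adjusted 0.381). The permutation tests between LSK and LK treat the 8 stems as separate units and do not use the title numbers they share. For Trb V the CNS difference was 0.02 (exact sign-flip p = 0.641, adjusted 0.915) and it was higher in 5 of 8 stems. For Trg V 4 of 8 stems were higher (exact sign-flip p = 0.938, adjusted 0.938). Igk V did not pass either (0.56, exact sign-flip p = 0.0547, adjusted 0.190), beside a background per kb that was 0.57 higher in the CNS. Nor did Trd V (−0.13, lower in CNS on 0 to 7 counts, exact sign-flip p = 0.0391, adjusted 0.190). Between LSK and LK, Igk V differed by 0.74 (exact permutation p = 0.0571, adjusted 0.190), and Trb V, Trg V and Trd V by −0.02, −0.04 and 0.08.

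The genes most like Dntt over the 16 libraries, by Pearson's r of log2 CPM among 11640 genes with a mean of at least 50 counts, were Chsy1 (0.873), Zfp710 (0.863), Tns3 (0.858), Cdkn1b (0.843) and Nabp1 (0.842). The libraries share stems and sites, so these values describe the 16 libraries and carry no test. Rag1 was most like Pms1 (0.85), then Zfp969 (0.825), Zfp966 (0.814), Gm20775 (0.800) and Gm42549 (0.785). The genes most like Rag2 were Vgll4 (0.830), Gata3 (0.804), Vps72 (0.769), Trmt61b (0.748) and Gm6736 (0.747), at a Rag2 level of 5 to 30 counts. The 10 genes did not follow Dntt: its r with the other 9 ran from −0.520 (Prkdc) to 0.144 (Xrcc4), and with Rag1 it was 0.0322. The closest pair among the 10 was Lig4 and Nhej1 (0.729).

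The summed levels of 5 marker lists overlapped between sites in LSK, and all but the microglial list did in LK. The 10 B-lineage markers summed to 3.29 to 9.14 CPM in BM LSK, 4.26 to 9.33 in CNS LSK, 3.19 to 4.62 in BM LK and 3.81 to 6.51 in CNS LK. The 6 microglial markers summed to 3.71 to 5.10, 3.35 to 5.50, 3.40 to 4.09 and 4.38 to 4.99 CPM in the same order, so that every CNS LK library was above every BM LK library, and Tmem119 was at 0 in 2 libraries. The 10 neural, glial and meningeal markers summed to 32.8 to 45.6, 35.1 to 59.7, 38.0 to 42.6 and 40.9 to 46.1 CPM, of which Mbp made up 28.5 to 52.0. The 12 T and NK markers summed to 397 to 446, 349 to 459, 386 to 422 and 391 to 444 CPM, and the 10 myeloid markers to 3.16 to 34.2, 7.86 to 36.3, 5.65 to 21.0 and 8.89 to 33.9, with Fcgr3 at 0.934 to 32.9. Among the single markers with enough counts to test, 6 of 6 myeloid markers had higher values in the CNS (median log2 change 0.49) and 4 of 5 B-lineage markers other than the 10 genes did (median 0.46), in edgeR without the block. In each list 2 had an unadjusted p under 0.05, beside 1727 of all 18878 genes tested in that fit. In both lists 0 were called by edgeR with or without the block or by DESeq2. The summed B-lineage markers lay at 1.64 to 3.32 times background, and background per kb was itself 0.57 higher in the CNS (log2). The part of background in these higher values was not tested. The T and NK markers had a median of −0.0021, with 3 of 8 higher. The part of any of these cells in the Dntt difference was not tested.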

How the data were processed

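Bulk RNA of 16 libraries, 4 per group, was used. Per the labels' protocols, RNA was extracted with a low-input kit and made into libraries with a stranded total RNA kit. The submitters' processing notes name the build GRCm39 and DESeq2, without their role. Aligner, counter, annotation, and use of strand or molecular identifiers are not given in the sources used here. The authors deposited whole-number counts per Ensembl identifier. The table's name calls them normalised, but library totals differ, so they were used as raw counts. Per the labels, every column matched 1 sample, and 0 columns were left unused. Identifiers without a symbol held 41.8% of counts and stayed in library sizes.

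Genes with a mean of at least 10 counts (18878) entered a model of the 4 group means (edgeR 4.0.16 under R 4.3.3), with TMM scaling and quasi-likelihood tests, two-sided, with Benjamini-Hochberg adjustment over all genes at 0.05, in 7 contrasts. DESeq2 1.42.0 was an alternative. The fit was tested on simulated data with known changes. Symbols, exon lengths and overlaps come from GENCODE M21 and promoters from RefSeq, both on GRCm38, so no gene coordinates on the authors' build are given. Intervals and limits from counts cover counting error only, and counts are not independent molecules.

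Whether stems pair libraries was checked with r, across genes, between the BM and CNS library of a stem after group means were subtracted. For genes averaging 10 counts or more, r was over 0.1 in 6 of 8 stems (−0.0168 to 0.284, median 0.206), and at 50 in 8 of 8 (0.336 to 0.618). What a stem stands for is not in the labels, so the unblocked fit stays primary and blocked values stand beside it.

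The 10 genes and all lists were chosen with earlier results of these data known. Named were the 10 genes, the list genes past 0.05 (3 highest and 3 lowest where over 6 passed), otherwise up to 2 of the highest level, and the 5 genes most like Dntt, Rag1 and Rag2. A few genes that the rule names are not reported here. Alternatives were another tool, scaling, filter, identifier set or block, a background covariate, and leaving out libraries. Those that leave out both libraries of a stem were added after seeing the data. The levels of T-cell and B-cell genes named to check the labels, Pax5 among the regulators, Ccna2, H2afx and B230118H07Rik were picked after their values were seen.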

Additional observations from a re-analysis of the deposited data

Results flagged for a closer look

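Among 60 groups of 4 libraries examined for a single library standing apart (the 10 genes, 4 receptor segment sums and background), 3 had one, and chance gives about 3. Rag2 in CNS LSK 4 had 1.36 CPM, beside 0.564 to 0.672 in the other CNS LSK libraries. Xrcc6 in CNS LSK 1 had 537 CPM, beside 585 to 592. Dclre1c in CNS LSK 2 had 11.8 CPM, beside 9.04 to 9.07. The 3 cases fall in 3 different libraries of CNS LSK.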

How the results depend on the processing

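The number of the 10 genes called between sites was 0 without a block and 1 (Dntt) under the replicate block on stems and under that block with the background covariate, over both sorted types and within each. It was also 1 over both types when every gene with a count was tested, and 0 in all other settings and comparisons. Nothing is read from the counts between sites, since Dntt was part of why the 10 genes were chosen. Over all genes the calls over both types were 0, and 126 with the stem block, 18 with the covariate as well, 40 with DESeq2 and 85 with every gene with a count, which also moved the median of all genes by 0.15. Within LSK they were 0, 26, 4, 0 and 10, and within LK 0, 12, 4, 0 and 14. For LSK against LK they were 45, and 162 with the title numbers as a block, 222 with DESeq2 and 290 with every gene, and 15 to 137 with 1 library left out. Within BM 0 became 25 with DESeq2 and 48 with every gene, and within CNS 6 and 38. For title numbers r was over 0.1 in 4 of 8 pairs at 10 counts and in 6 of 8 at 50, short of every pair. At 50 counts their median r was 0.218, beside −0.0926 for libraries of other numbers. Stems also fell short of every pair at 10 counts, with 6 of 8. Neither was used as pairing in the primary fit, while the sign-flip tests paired by stem. The title-number block gave Dntt 0.097 for LSK minus LK. Small differences changed sign in places. Under the stem block with the covariate, Lig4 was 0.0079, Dclre1c 0.034 and the Dntt interaction 0.0030. With every gene, Rag1 was −0.023 and Xrcc4 −0.042, and at 50 counts the LSK minus LK value of Lig4 was 0.0035. Leaving out 1 library gave −0.073 to 0.069 for Xrcc4, −0.090 to 0.0042 for Dclre1c and −0.024 to 0.083 for Rag1 between sites, −0.86 to 0.57 for the Dntt interaction, and −0.054 to 0.22 for Rag2 and −0.050 to 0.0075 for Lig4 between sorted types. For Dntt between sorted types it gave −0.17 to 0.95 within BM and −0.27 to 0.75 within CNS. The cause was not tested. The Igh V values kept their sign and stayed above 0.05 in every setting. Depth limits Rag2, Xrcc4 and Nhej1.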
